A study of Mus musculus with 18 samples.

Results

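Splenic B cells of control mice were compared after 48 h of culture with LPS and before culture (0 h), 3 libraries against 3, over every gene above 0 FPKM in at least 1 of these 6 libraries. That left 15584 of the 16545 genes in the table of the whole series. The question put to the comparison was which genes of the resting cell were still off after 48 h, which had come back, and what had risen in their place. FPKM is the number of fragments assigned to a gene per kilobase of its length and of all fragments in the library, so it allows levels to be compared between genes of one library, and its sum differed between the libraries, as given below.

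The series holds 18 libraries of total RNA from spleen B cells, with 2 genotypes (CON and B-CKO), 3 times (D0, D1 and D2, that is 0, 24 and 48 h of LPS) and 3 mice for each combination. Control mice carried a Cre recombinase driven in B cells, with intact *Zbtb24* (Zbtb24 +/+). The B-CKO mice, their littermates, carried the same Cre with both *Zbtb24* alleles floxed (Zbtb24 loxp/loxp), so that deletion was limited to cells in which the Cre was active and the controls shared the Cre insertion, on a C57BL/6 background. Ages were not given in the sources used here. B cells were enriched and then sorted on a B cell surface marker, cultured in RPMI-1640 with FBS and stimulated with LPS, the outer-membrane lipopolysaccharide of Gram-negative bacteria. No library came from cells cultured without LPS, so the effects of culture and of LPS cannot be told apart.

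LPS is read by B cells through Tlr4 with its partner Ly96, and through the related pair Cd180 and Ly86. It drives small, non-dividing follicular and marginal zone B cells to grow, divide and, in part, to become antibody-secreting plasmablasts without help from T cells. A resting B cell is held in that state by transcription factors of the Klf and Foxo families and by inhibitors of the cell cycle, it moves between blood, follicle and marginal zone with a set of G-protein-coupled receptors, and it is equipped to take up antigen and to present it on MHC class II. Ribosome production, lipid synthesis, glycolysis and the DNA replication machinery are the classical programmes of the growing blast.

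The libraries were compared with each other first. Replicates of one time correlated over genes, on log2(FPKM + 1), at 0.986 or above at 0 h and at 0.998 or above at 24 and 48 h. The median standard deviation between the 3 libraries, over genes averaging 1 FPKM or more, was 0.17 at 0 h against 0.06 at 24 h and 0.07 at 48 h, so the 0 h libraries were the most spread. The first 0 h library stood apart: of 7781 genes with a 0 h mean of at least 5 FPKM, 69 were at least 2-fold below both other 0 h libraries in it and 14 above, while the third had 30 above and 15 below and the second 1 of each. Deviations from the group mean ran in parallel in the 0 h libraries of the same number from B-CKO mice (correlation over genes 0.86, 0.47 and 0.79 for numbers 1 to 3, given as a description). The summed FPKM of a library was 453150 to 468659 at 0 h and 527346 to 541259 at 48 h.

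The labelled cell type was checked against marker genes. All 10 B cell markers were above 1 FPKM at each time, and 8 of them were lower at 48 h, with a summed level of 6018 to 7558 FPKM at 0 h and 2988 to 3162 FPKM at 48 h. Of 14 T cell markers 5 were under 1 FPKM at 0 h and 12 at 48 h, with a summed level of 221 to 229 FPKM and then 70.5 to 86.5 FPKM, nearly all of it *Cd2* and *Lck*. The defining T cell gene *Cd3e* averaged 0.623 FPKM at 0 h and 0.04 at 48 h. The 8 NK cell markers summed to 9.11 to 15.5 and then 0.98 to 1.53 FPKM, the 18 myeloid markers to 14.3 to 20.8 and 11.2 to 14.3 FPKM, and the 6 platelet markers to 2.16 to 2.76 and 0.4 to 0.48 FPKM. Of 17 myeloid markers tested 11 were lower and 1, *Itgam*, was higher, and 9 of the 18 were at 0 FPKM at 48 h, against 1 at 0 h. Of 9 erythroid markers the sum was 15.3 to 38.1 FPKM at 0 h, the highest in the third library, and 9.79 to 10.4 FPKM at 48 h. Of the 8 erythroid markers tested 5 were lower and 1 was higher. The 9 dendritic cell markers summed to 23 to 34 FPKM at 0 h and 84.6 to 92.5 FPKM at 48 h, mostly *Bst2* and *Flt3*, with *Itgax* at 0.443 and 0.06 FPKM and *Clec9a* at 0.0233 and 0 FPKM. Of these 9 markers 4 were called lower and 3 higher, among the latter *Batf3* (log2 difference 1.05). Genes of these other cell types moved with time, and their part in the results was not tested. In bulk libraries, fewer cells of a type and less RNA per cell cannot be told apart.

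By 48 h more than every second gene had moved. The test (limma on log2(FPKM + 1), Benjamini-Hochberg adjustment over all genes tested, adjusted p under 0.05) called 8855 genes, which is 56.8% of those tested. Of these, 4126 were higher at 48 h (26.5%) and 4729 were lower (30.3%). At least 2-fold higher were 1620 genes (10.4%) and at least 2-fold lower 1437 (9.22%). Rescaling each library to a common FPKM sum (TPM) turned the 2-fold counts into 1364 higher and 2282 lower, so the share of higher genes among them went from 53.0% to 37.4%. With a pseudocount of 0.1 in place of 1 the 2-fold counts were 2172 higher and 2471 lower, so that the majority turned. On the TPM scale the median difference over genes averaging 1 FPKM or more was −0.21 against −0.01 on the FPKM scale, and differences below are to be read relative to such a shift. All 3 libraries at 48 h lay below all 3 at 0 h for 5322 genes (34.2%) and above them for 4528 (29.1%). Of the 1620 genes that were 2-fold higher, 1280 had been 2-fold higher at 24 h, 689 were called higher at 48 h than at 24 h and 482 lower. Without the first 0 h library 4431 genes were higher and 4777 lower.

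The 12 largest falls, among genes averaging 10 FPKM or more at one time, were led by signal-induced transcription factors. *Fosb*, an AP-1 subunit (chromosome 7, 19302696 to 19310118, mm10), read 243, 759 and 397 FPKM in the 0 h libraries and 0.28, 0.16 and 0.21 FPKM at 48 h (log2 difference on the FPKM + 1 scale −8.43 ± 0.38 (SE), adjusted p = 1.16e-05, limma). Its paralogue *Fos*, another AP-1 subunit, read 420.4, 444 and 344 FPKM at 0 h and 1.81, 1.69 and 1.44 FPKM at 48 h (−7.25 ± 0.11, adjusted p = 1.32e-06). For both genes every 48 h library was more than 100-fold below every 0 h library. *Nr4a1*, the orphan nuclear receptor Nur77 that is switched on by antigen receptor signals, read 604, 1203 and 944 FPKM and then 8.47, 10.6 and 8 FPKM (−6.47 ± 0.25, adjusted p = 7.06e-06). *Klf4*, a zinc-finger factor that restrains lymphocyte division, read 58.2, 164 and 121 FPKM and then 0.33, 0.45 and 0.3 FPKM (−6.29 ± 0.36, adjusted p = 2.54e-05). *Klf4* and *Nr4a1* were lowest in the first of the 0 h libraries, yet the groups did not overlap.

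Among the others of the 12, *Plk2*, a polo-like kinase, went from a mean of 150.5 ± 62.2 FPKM (SD, n = 3) to 1.07 ± 0.208 FPKM, and *Rasgef1b*, an exchange factor for Ras-family GTPases, from 201 ± 119 to 2.53 ± 0.271 FPKM. *Tsc22d3*, the glucocorticoid-induced leucine zipper protein, went from 611 ± 210.2 to 11 ± 0.923 FPKM. *Plaur*, the urokinase receptor, read 121, 474 and 584 FPKM at 0 h and 6.2 to 6.54 FPKM at 48 h (−5.46 ± 0.56, adjusted p = 0.000279). *Irs2*, an adaptor of the insulin receptor, read 92.5, 415 and 548 FPKM at 0 h and 4.83 to 6.65 FPKM at 48 h (−5.43 ± 0.64, adjusted p = 0.000494). The first 0 h library was thus the low one for *Plaur* and *Irs2*, and their standard errors were wide. *Rgs1* and *Rgs2*, which switch off G-protein signals from chemokine receptors, fell by 5.57 and 5.03, and *Klf6*, another Klf factor, fell by 4.61. Of the 12 genes, *Fosb*, *Fos* and *Nr4a1* were on the list of immediate early genes.

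The 12 largest rises were mainly genes of the dividing cell. *Slc16a3*, the lactate exporter MCT4 (chromosome 11, 120948484 to 120959000, mm10), read 0.45, 0.25 and 0.21 FPKM at 0 h and 109.8, 124 and 129 FPKM at 48 h (6.55 ± 0.11, adjusted p = 1.32e-06). In the 24 h libraries it read 0.18, 1.75 and 0.39 FPKM, so that nearly all of its rise fell in the second day. *Pclaf*, a PCNA-binding protein, went from 5.12 ± 1.41 to 229 ± 4.91 FPKM and *Rrm2*, the small subunit of ribonucleotide reductase, from 4.26 ± 0.942 to 197 ± 5.27 FPKM. The cyclins *Ccna2*, *Ccnb1* and *Ccnb2*, the mitotic kinase *Plk1*, the chromosomal passenger *Birc5* and the ubiquitin ligase partner *Ube2c* rose by 5.20, 5.07, 4.90, 5.04, 5.18 and 4.73 on the log2 scale. *Fads2*, a fatty acid desaturase, went from 0.127 ± 0.085 to 34.2 ± 2.98 FPKM, *Ifitm2*, an interferon-induced membrane protein, from 0.707 ± 0.218 to 45.1 ± 4.28 FPKM, and *Tpi1*, triosephosphate isomerase, from 36.1 ± 4.3 to 988 ± 71.2 FPKM. On the lists for DNA replication or mitosis were 7 of the 12.

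**Figure D1:**
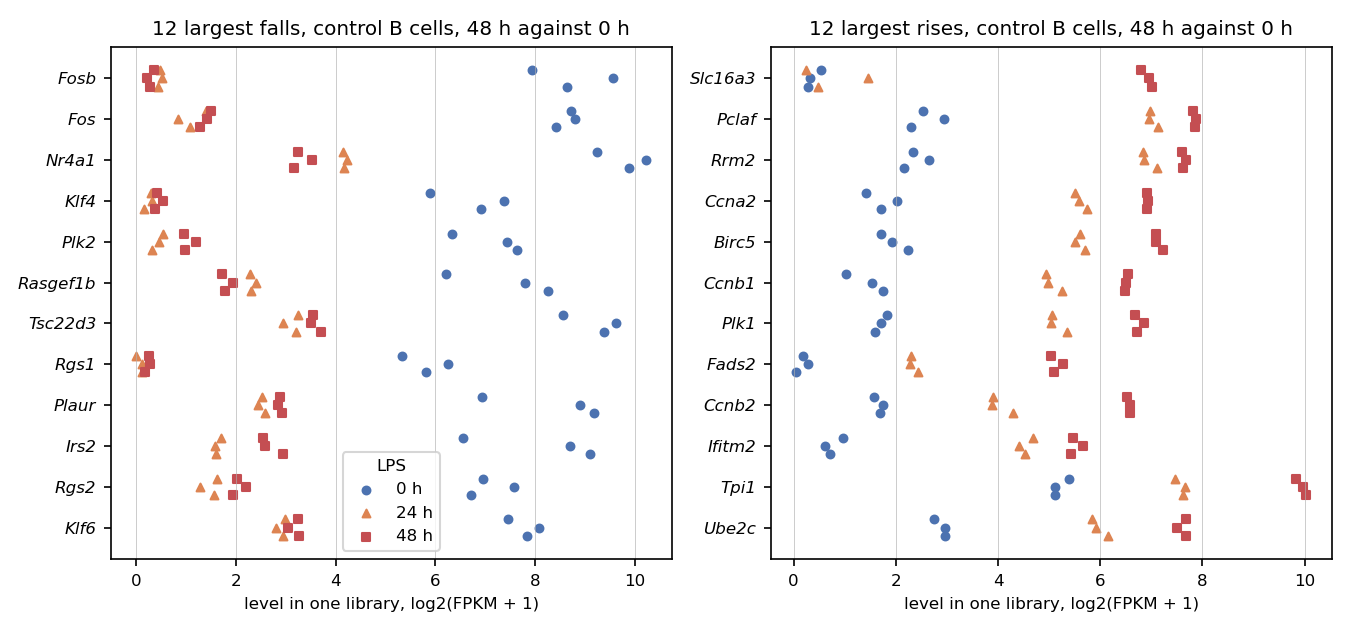
Level of the genes with the 12 largest falls (left) and the 12 largest rises (right) in each control library, as log2(FPKM + 1); circles are 0 h, triangles 24 h and squares 48 h, 3 libraries each. The 48 h squares lie far from the 0 h circles in every row, and for *Slc16a3* the 24 h triangles lie near the 0 h circles.

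To separate genes that stayed down from genes that came back, the 24 h libraries of the same genotype were set beside these 6. They are compared with the same 0 h libraries, so the values at 24 and 48 h are given side by side and no overlap of these comparisons is read as a result. The 0 h cells had been enriched and sorted, and whether their levels are those of undisturbed resting cells was not tested. The resting level of a gene means its 0 h level here. A resting-cell gene was defined as one with a 0 h mean of at least 5 FPKM that was called lower at 24 h by at least 2-fold. There were 1227 such genes among 7781 at that level. Of these, 975 (79.5%) were still at least 2-fold below 0 h at 48 h and 211 (17.2%) had returned, that is, they were called higher at 48 h than at 24 h and their 48 h difference was above −1 on the log2(FPKM + 1) scale on which the 2-fold line was drawn throughout. On that scale a fall of a low gene is understated, and 25 of the returned genes were under 50% of their 0 h FPKM, down to 43.9%. The other 41 met neither rule. A further 247 genes were first called 2-fold lower at 48 h (459 on the TPM scale). The rule fixes these directions, and the counts are a description. Over all genes, 57.4% were called between 24 and 0 h and 9.34% were 2-fold lower at 24 h, while 20.1% were called higher at 48 h than at 24 h and 2.11% by at least 2-fold.

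Within the group that stayed low, 266 genes had climbed from 24 to 48 h without reaching the 2-fold line, 252 had fallen further and 457 were not called between 24 and 48 h. These subgroups depended on the fit: in 1 fit of all 9 control libraries 158 had climbed and 117 had fallen further. The median gene that stayed low stood at 29.8% of its 0 h level at 24 h and at 30.6% at 48 h. The median returned gene went from 39.2% to 60.0%. Most returned genes were still short of their resting level: 158 of the 211 returned genes were still called below 0 h, 47 were not called either way, and 6 were called above it. Nearest to the line stood *Cyth1*, which counted as returned with a difference of −0.998, and *Mef2c*, which counted as low with −1.003.

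Of the genes that stayed low, 36 were under 1 FPKM at 48 h, and 27 of them had been so at 24 h. The 10 with the highest resting level were *Fosb*, *Klf4*, *Rgs1*, *Zbtb10*, *Abca1*, *Gfi1*, *Ahr*, *Nr4a2*, *Osgin1* and *Ildr1*. *Abca1*, which exports cholesterol from cells, read 19.1, 22.2 and 30.5 FPKM at 0 h, 0.32 to 0.39 FPKM at 24 h and 0.34 to 0.4 FPKM at 48 h (−4.15 ± 0.18, adjusted p = 9.63e-06). *Gfi1*, a transcriptional repressor of blood cell development, read 7.74, 24.1 and 34.2 FPKM at 0 h and 0.73 to 0.8 FPKM at 48 h (−3.48 ± 0.49, adjusted p = 0.00107). *Ahr*, the aryl hydrocarbon receptor, read 4.34, 14.9 and 35.4 FPKM at 0 h, 1.48 to 1.52 FPKM at 24 h and 0.53 to 0.74 FPKM at 48 h (−3.15 ± 0.64, adjusted p = 0.00572). Resting levels of *Gfi1* and *Ahr* were spread more than 4-fold between libraries, whereas those of *Abca1* lay within 2-fold.

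*Zbtb10*, a BTB zinc-finger factor, was uneven as well, with 9.16, 56.8 and 65.1 FPKM at 0 h and 0.64 to 0.83 FPKM at 48 h (−4.29 ± 0.70, adjusted p = 0.00205). *Nr4a2*, a relative of *Nr4a1*, read 4.88, 17.1 and 17.5 FPKM at 0 h and 0.02 to 0.08 FPKM at 48 h (−3.57 ± 0.44, adjusted p = 0.000616). Lower down the order, *Osgin1* and *Ildr1* went from means of 12.4 and 12.1 FPKM to 0.387 and 0.457 FPKM, and the call for *Ildr1* was lost without the second 0 h library. In 20 of the 36 genes the first 0 h library was the lowest of the 3, and in 10 it was more than 2-fold below both others. The 36 also held the globin genes *Hba-a1*, *Hba-a2* and *Hbb-bs*, of which the first 2 are near-identical copies and the third has a near-identical copy in *Hbb-bt*, so that reads can be split, with 0 h means of 7.77, 5.23 and 6.72 FPKM. These are red cell genes, and the third 0 h library held the most of each.

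Among the returned genes the 10 with the largest climb from 24 to 48 h were *Bnip3l*, *Gsn*, *Narf*, *Ctla4*, *Cdc25b*, *Arl5c*, *H2-T-ps*, *Pafah1b3*, *Vegfa* and *Serinc5*. *Bnip3l*, a receptor for the removal of mitochondria by autophagy, read 34.2, 31.3 and 35.4 FPKM at 0 h, 14, 14.8 and 14.1 at 24 h and 72, 89.3 and 95.5 after 48 h. It was the one returned gene that ended at least 2-fold above its resting level (1.31 ± 0.12, adjusted p = 0.000142). *Gsn*, the actin-severing protein gelsolin, read 41.8, 30.5 and 30.5 FPKM, then 6.32, 4.26 and 5.13 and then 30.6, 30.9 and 37.6, and *Cdc25b*, a phosphatase that activates cyclin-dependent kinases, 51.1, 51.6 and 44.9 FPKM, then 9.18, 8.47 and 10.2 and then 43.3, 43.7 and 52.6. For these 2 genes the 48 h libraries overlapped those at 0 h, and the 95% interval of the log2 difference ran from −0.40 to 0.31 for *Gsn* and from −0.32 to 0.16 for *Cdc25b*.

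*Ctla4*, an inhibitory receptor best known on T cells, read 1.3, 9.97 and 7.42 FPKM at 0 h, 0.78, 0.45 and 0.57 at 24 h and 5.64, 5.55 and 8.25 after 48 h, and its 48 h difference (95% interval −1.08 to 1.69) changed sign without the first 0 h library, to −0.38. *Vegfa*, the vascular growth factor, read 2.41, 5.97 and 8.93 FPKM, then 1.42 to 1.68 and then 7.82 to 9.5 (95% interval −0.27 to 1.53). The first 0 h library was the low one for *Ctla4* and *Vegfa*. *Narf*, a nuclear prelamin-binding protein, and *H2-T-ps*, an MHC class I pseudogene whose reads may be shared with its family, ended above their resting level, at means of 17.8 ± 1.43 FPKM against 10.9 ± 3.28 and 27.8 ± 2.69 against 14.7 ± 0.97 (0.69 ± 0.21, adjusted p = 0.0281 and 0.87 ± 0.09, adjusted p = 0.000334). The call for *Narf* was lost on the TPM scale and when the second 0 h library or any one 48 h library was left out. *Arl5c*, a small GTPase of the Arf-like family, came back to 43.9 ± 5.15 from 9.35 ± 0.659 FPKM against 63.7 ± 15 at 0 h (a call lost with median-ratio scaling and when any one of the 6 libraries but the first at 0 h was left out), while *Pafah1b3* and *Serinc5* reached 45.4 and 14.9 FPKM against 36.5 and 11.2 at 0 h, differences that were not called.

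**Figure D2:**
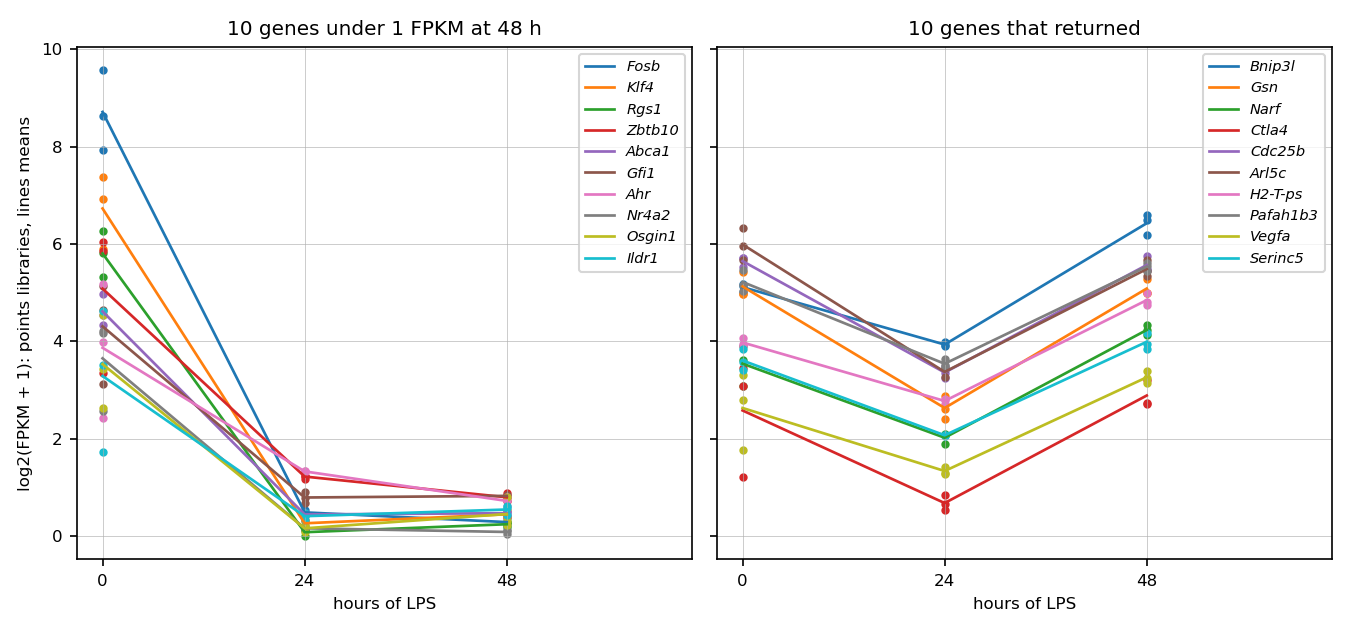
Paths over 0, 24 and 48 h of LPS for the 10 genes under 1 FPKM at 48 h with the highest resting level (left) and the 10 returned genes with the largest climb after 24 h (right), as log2(FPKM + 1); points are single control libraries and lines the means of 3. The left-hand genes lie near 0 at both later times, while the right-hand genes dip at 24 h and come back towards or above their 0 h level, and the 0 h points are the most spread.

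The same classes were then read in the B-CKO libraries, which came from other mice and were not used to choose the genes. Of the 211 returned genes, 201 (95.3%) were called higher at 48 h than at 24 h in B-CKO cells, where 21.7% of all genes were. Of the 975 that stayed low, 928 (95.2%) were called at least 2-fold lower at 48 h than at 0 h, where 9.45% of all genes were. The full rule applied to B-CKO cells gave 998 genes that stayed low and 272 that returned. The genes that stayed low in both genotypes numbered 900, which is 92.3% of the control list and 90.2% of the B-CKO list. Those that returned in both numbered 173, 82.0% of the control list and 63.6% of the B-CKO list. All 20 genes named above as off or returned were low or returned, respectively, in B-CKO cells as well. In a limma fit of the difference between genotypes in the change from 0 to 48 h, 0 of 16257 genes passed an adjusted p of 0.05 (smallest 0.0631), and 422 had an unadjusted p under 0.05. With libraries of the same time and number as a block, an alternative added after seeing the data, the count was again 0 (smallest adjusted p 0.396), with 976 under an unadjusted p of 0.05. Since same-numbered 0 h libraries of both genotypes deviated together, the 0 h side of this comparison is not fully separate.

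Gene lists put these classes into roles. Of the resting-cell genes on the lists described below, 22 of 23 immediate early genes, 14 of 15 homing genes, 11 of 12 MHC class II genes, 10 of 10 follicular and marginal zone genes and 6 of 6 NF-κB genes were still low, against 79.5% of all resting-cell genes. Over all resting-cell genes 17.2% had returned. Returned members stood on the plasma cell list (3 of 5, *Sdc1*, *Jchain* and the adaptor *Lax1*), the lysosome list (3 of 9, among them prosaposin, *Psap*), the quiescence list (3 of 22), the B cell factor list (2 of 10) and the glycolysis list (2 of 2, both glucose transporters). The homing, MHC class II, endoplasmic reticulum, BCL2 and mitosis lists held 1 each. *Lax1* stood at 50.1% of its 0 h FPKM and *Sdc1* no higher, and in B-CKO cells *Lax1* was low and *Sdc1* in neither class. *Psap* went from 423 ± 18 FPKM to 148 ± 6.57 at 24 h and 237 ± 9.22 at 48 h. Such counts are small and describe these lists.

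For every list the counts stand beside 26.5% of all genes higher and 30.3% lower at 48 h than at 0 h, and beside 20.1% higher and 24.8% lower at 48 h than at 24 h. Over genes averaging at least 1 FPKM, 35.3% were higher and 35.6% lower at 48 h than at 0 h. The quiescence list of 28 genes holds factors and brakes that keep lymphocytes from dividing. At 48 h 25 of them were lower, 2 higher and 1 was not called, with a median difference of −1.35 (all genes tested, −0.02). *Klf2*, which maintains lymphocyte quiescence and homing, read 787, 941 and 788 FPKM at 0 h and 107, 99.1 and 111 at 48 h (−2.97 ± 0.09, adjusted p = 3.92e-06). *Btg1*, an antiproliferative adaptor of mRNA deadenylation, read 511, 669 and 642 and then 60.8, 56.8 and 62.8 FPKM (−3.31 ± 0.11, adjusted p = 4.91e-06). *Txnip*, which restrains glucose uptake, *Foxo1* and *Foxo3*, forkhead factors, and *Pik3ip1*, an inhibitor of PI3 kinase, fell by 2.17, 1.82, 0.99 and 2.07.

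Quiescence genes that had fallen were next followed through the second day. Of the 22 that were resting-cell genes by the rule above, 19 were still low, but 16 of these were called higher at 48 h than at 24 h (27.3% of all genes that stayed low) and the other 3 had returned. *Cdkn1b*, the cell cycle inhibitor p27, went from 73.8 ± 13.9 FPKM to 21.5 ± 1.03 at 24 h and 49.8 ± 2.85 after 48 h, and *Ccng2*, a cyclin linked to cell cycle exit, from 33.1 ± 3.75 to 8.71 ± 0.17 and back to 33.1 ± 4.13 FPKM. *Foxo3*, the third returned member, was close to the line. Its difference was −0.992, at 47.6% of its 0 h FPKM, and it was low in B-CKO cells. *Cdkn2d*, the inhibitor p19 of the Cdk4 and Cdk6 kinases, and *Slfn2*, a schlafen protein needed for lymphocyte quiescence, were the 2 members that rose, to 40.7 ± 1.86 from 22.1 ± 7.36 FPKM and to 124 ± 5.58 from 45.1 ± 34.7 FPKM.

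Most of the genes that position B cells in lymphoid organs were lower at 48 h than at 0 h. Of 21 homing and egress genes 16 were lower and 1 higher (median −1.54). Between 24 and 48 h 14 of the 21 were called higher (20.1% of all genes). Of the 14 resting-cell genes that were still low, 10 had climbed in that time (27.3% of all genes that stayed low). *Cxcr4*, the receptor for Cxcl12, read 178, 372 and 500.3 FPKM at 0 h, 7.71 to 8.64 at 24 h and 17.6, 19.4 and 23.3 after 48 h (−3.94 ± 0.36, adjusted p = 0.000175). *S1pr1*, which guides exit into blood and lymph, read 148, 173 and 216 FPKM at 0 h and 10.9, 9.51 and 13.4 at 48 h (−3.87 ± 0.17, adjusted p = 1.08e-05). Both genes kept less than 10% of the resting level, although *Cxcr4* had climbed from 24 to 48 h (adjusted p = 0.000168).

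*Ccr7*, which directs cells to T cell zones, went from 492 ± 248 to 59.3 ± 1.92 FPKM, and *Gpr183*, the oxysterol receptor EBI2, from 67 ± 21.4 to 18.1 ± 1.2 FPKM. The list was not uniform. *Cxcr5*, the receptor that takes B cells into follicles, stood at 132 ± 37.4 FPKM at 0 h and 129.6 ± 4.08 at 48 h (95% interval of the log2 difference −0.43 to 0.45). *S1pr4* dipped to 14.2 ± 0.567 FPKM at 24 h and came back to 37.2 ± 3.54 against 36.4 ± 17.3 at 0 h, and the integrin *Itgb1* rose from 14.7 ± 1.9 to 58.5 ± 0.762 FPKM (1.93 ± 0.10, adjusted p = 1.8e-05).

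Follicular and marginal zone markers split. Of 22 genes 13 were lower and 7 higher. *Icosl*, the ligand of the T cell costimulator ICOS, read 172, 129 and 90.8 FPKM at 0 h, 22.5 to 26.5 at 24 h and 9.41, 7.48 and 7.76 after 48 h (−3.79 ± 0.23, adjusted p = 3.13e-05). *Cd55*, which shields cells from complement, read 289, 195 and 181 FPKM and then 16.6, 13.9 and 18.3 (−3.66 ± 0.19, adjusted p = 1.91e-05), and *Hes1*, a Notch target, went from 53.9 ± 22.4 to 3.08 ± 0.415 FPKM. The first 0 h library was the high one for these 3 genes. *Cr2*, the complement receptor CD21, *Fcer2a*, the low-affinity IgE receptor CD23, and *Notch2*, the receptor that directs marginal zone fate, fell by 2.57, 1.72 and 1.42. *Zbtb32*, a BTB zinc-finger repressor, rose from 6.91, 6.27 and 4.84 to 156, 184 and 173 FPKM (4.63 ± 0.13, adjusted p = 2.89e-06), and *Cd36*, a scavenger receptor, from 16.3 ± 3.03 to 86.6 ± 4.59 FPKM.

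The MHC class II pathway, by which B cells show peptides to helper T cells, fell as a block. Of 17 genes 15 were lower and 1, the small regulator *Rfxap*, was higher (median −1.57). Between 24 and 48 h 10 of the 17 were called higher and 3 lower, against 20.1% and 24.8% of all genes. Of the 11 that were still low, 7 had climbed in that time. *Rfxap* was not called higher on the TPM scale. The invariant chain *Cd74* was the most abundant, with 9967, 11442 and 9967 FPKM at 0 h, 3148, 2774 and 2913 at 24 h and 3584, 3279 and 3532 after 48 h (−1.59 ± 0.11, adjusted p = 5.67e-05). *H2-Aa* and *H2-Ab1*, the chains of the classical molecule I-A, fell by 1.84 and 1.56, *H2-Oa* and *H2-Ob*, which inhibit peptide loading, by 2.51 and 2.61, and *Ciita*, the master transactivator of the pathway, from 102 ± 11.2 to 33.4 ± 1.13 FPKM. *Marchf1*, the ligase that removes class II molecules from the surface, read 56.9, 57.9 and 49.8 and then 5.88, 4.56 and 6.18 FPKM (−3.10 ± 0.12, adjusted p = 7.13e-06). As a share of all FPKM the 17 genes went from 4.48 to 4.99% at 0 h to 1.1 to 1.27% at 24 h and 1.3 to 1.4% at 48 h.

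Antigen receptor genes and the B cell transcription factors moved less. Of 32 B cell receptor signalling genes 24 were lower and 1 was higher, with a median of −0.62. *Cd79a*, the signalling chain of the receptor, read 2234, 2195 and 1790.2 FPKM at 0 h and 870.1, 814 and 886 at 48 h (−1.27 ± 0.11, adjusted p = 0.00012), while *Cd79b* went from 693 ± 231 to 550.1 ± 33.1 FPKM and was not called. *Dok3* and *Blk*, an inhibitory adaptor and a Src-family kinase, fell by 2.35 and 1.87. *Fcgr2b*, the inhibitory Fc receptor, was the member that rose, from 79.9 ± 10.5 to 184 ± 10.1 FPKM (1.20 ± 0.10, adjusted p = 0.000138).

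Of 25 B cell transcription factors 13 were lower, 4 higher and 8 not called. On the TPM scale 14 were lower and 2 higher. *Pax5*, which holds B cell identity, read 227, 224 and 272 FPKM at 0 h, 143 to 156 at 24 h and 96.1, 105 and 93.2 after 48 h (−1.28 ± 0.09, adjusted p = 6.78e-05), and *Ebf1* and *Bcl6*, the germinal centre repressor, fell by 1.46 and 2.08. All 3 had fallen further between 24 and 48 h. *Ets1*, which opposes plasma cell formation, went from 306 ± 93.7 to 73.8 ± 6.01 FPKM. *Pou2af1*, the B cell coactivator OBF-1, rose by 0.62, and *Ikzf1*, *Irf8*, *Tcf3* and *Spi1* were among the 8 without a call.

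Immediate early genes, which are transcribed within minutes of a stimulus without new protein synthesis, were the list with the lowest median (−2.92), with 25 of 27 lower, 1 higher and 1 not called. Their summed level was 6065 to 8329 FPKM in the 0 h libraries, 760.1 to 771 at 24 h and 786 to 802 at 48 h. The part of cell enrichment and sorting in these 0 h levels was not tested. *Jun* and *Junb*, AP-1 subunits, went from 251 ± 39.2 to 15.8 ± 3.04 and from 931 ± 239 to 119.7 ± 4.59 FPKM. *Egr1*, an early growth response factor, went from 212 ± 179 to 19.6 ± 3.35 FPKM and *Dusp1*, a phosphatase that ends MAP kinase signals, from 144 ± 38.7 to 6.48 ± 0.856 FPKM. *Kdm6b*, an H3K27 demethylase, read 39.4, 158 and 258 FPKM at 0 h and 3.93 to 4.85 at 48 h (−4.48 ± 0.64, adjusted p = 0.00118), and *Myc* went from 229.9 ± 50.1 through 113 ± 6.81 to 52.9 ± 3.33 FPKM. Of the 23 resting-cell genes in this list 22 were still low and none had returned. The 1 member of the list that was higher, *Ier3*, was not a resting-cell gene and rose from 0.197 ± 0.0862 to 3.49 ± 0.3 FPKM.

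As a list, genes of LPS sensing were called at shares close to or below those of all genes. *Tlr4* was low throughout, at 1.79 ± 1.23 FPKM at 0 h and 1.96 ± 0.212 at 48 h (95% interval of the difference −0.53 to 0.87), and *Ly96* was at 3.73 and 3.62 FPKM. *Cd180*, the alternative LPS co-receptor, read 151, 165 and 209.7 FPKM at 0 h and 55.1, 53.3 and 48.1 at 48 h (−1.72 ± 0.13, adjusted p = 7.31e-05), and *Ticam2*, the TRAM adaptor of Tlr4, rose from 2.26, 1.37 and 1.02 to 11.1, 12.1 and 11.3 FPKM (2.32 ± 0.19, adjusted p = 9.45e-05). Of the 21 genes in this list 7 were lower and 4 higher, against 30.3% and 26.5% of all genes.

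Of 31 NF-κB and activation genes 13 were higher and 11 lower, and on the TPM scale 12 and 13, so the majority turned with the scale. *Rel*, the c-Rel subunit, read 49.7, 135 and 227 FPKM at 0 h and 13.3 to 14.8 at 48 h (−2.96 ± 0.51, adjusted p = 0.00266), and *Cd69*, an early activation marker, 174, 315 and 195 and then 16.5 to 18.5 FPKM (−3.59 ± 0.22, adjusted p = 3.2e-05). *Bcl2a1d* and *Bcl2a1b*, survival genes that are near-identical copies, rose from 14.5 and 43.2 to 109 and 124 FPKM. At 24 h 15 of the 31 were higher and 10 lower than at 0 h, and 22 were called lower at 48 h than at 24 h (24.8% of all genes). *Ccl22*, a chemokine for activated T cells, and *Il6* went from 19.3 and 5.51 FPKM at 24 h to 4.62 and 1.78 FPKM at 48 h.

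**Figure D3:**
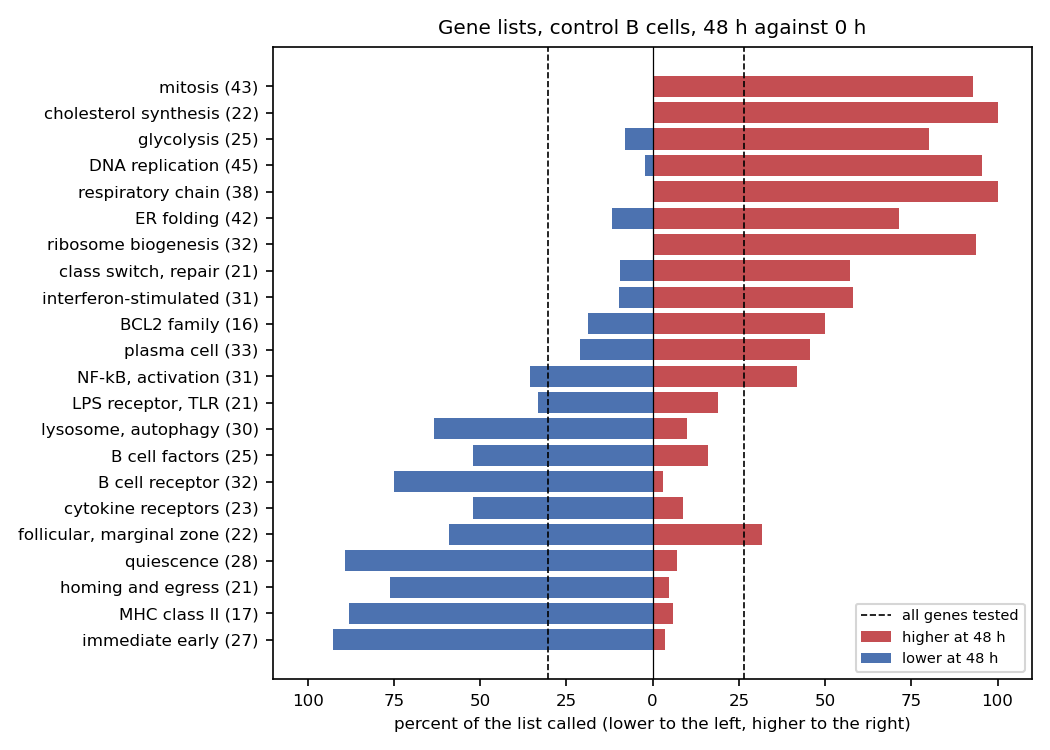
Percent of each gene list called higher (right) and lower (left) at 48 h than at 0 h in control B cells, with the number of genes tested in brackets; dashed lines are the same shares over all genes tested, 26.5% higher and 30.3% lower. Lists of the resting cell lie at the bottom with most members lower, and lists of growth, metabolism and division at the top with most members higher.

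Division genes rose most. Of 43 mitosis genes 40 were higher, none was lower and 3 were not called (median 3.91). *Ccnb1*, the cyclin that starts mitosis with Cdk1, read 1.03, 1.91 and 2.38 FPKM at 0 h, 29.8, 30.6 and 37.2 at 24 h and 92.8, 90.0 and 88.4 after 48 h (5.07 ± 0.19, adjusted p = 5.75e-06). *Plk1* read 2.56, 2.29 and 2.02 FPKM, then 32.5, 31.7 and 40.0 and then 102, 114 and 105 (5.04 ± 0.09, adjusted p = 1.39e-06). The libraries of each time were clear of those of the others, and 41 of the 43 were called higher at 48 h than at 24 h (20.1% of all genes). The 3 without a call were *Cdc25b*, which dipped and returned, *Cenpa* and *Pttg1*.

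DNA replication genes were already high at 24 h. Of 45 genes 43 were higher at 48 h, with a median of 2.34 at 48 h and 2.41 at 24 h. *Mcm10*, a helicase assembly factor, read 0.63, 1.03 and 1.07 FPKM at 0 h, 25.3, 27.1 and 30.6 at 24 h and 25.2, 26.1 and 26.4 after 48 h (3.82 ± 0.12, adjusted p = 4.45e-06), and *Cdc45*, a helicase subunit, 2.62, 2.81 and 2.25, then 37, 38.8 and 41.4 and then 46.8, 46.7 and 48.9 FPKM (3.77 ± 0.09, adjusted p = 1.99e-06). The licensing factor *Cdt1* was the member that fell, from 95.3 ± 34.4 to 39.9 ± 0.647 FPKM (−1.16 ± 0.27, adjusted p = 0.00932), and *Pold1* was not called.

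Promoters of the mitosis genes are shown because their members moved together and the letters by which such promoters are known could be searched. A CHR (cell cycle genes homology region) was searched as TTTGAA or TTCGAA and the box bound by NF-Y as CCAAT, on both strands, in RefSeq promoters of assembly GRCm38.p6 (250 bases before to 50 after the start). Of 43 mitosis genes 35 had a promoter in that set, with 37 promoters in all. Of these 28 (75.7%) held a CHR, against 14.6% of all 15627 promoters of genes tested, and 28 (75.7%) held CCAAT, against 37.6%. For *Ccnb2* (chr9:70421505-70421804, minus strand) and *Plk1* (chr7:122159185-122159484, plus strand) the sequences are given 5′ to 3′ with CHR and CCAAT letters, in either orientation, in capitals.
Ccnb2: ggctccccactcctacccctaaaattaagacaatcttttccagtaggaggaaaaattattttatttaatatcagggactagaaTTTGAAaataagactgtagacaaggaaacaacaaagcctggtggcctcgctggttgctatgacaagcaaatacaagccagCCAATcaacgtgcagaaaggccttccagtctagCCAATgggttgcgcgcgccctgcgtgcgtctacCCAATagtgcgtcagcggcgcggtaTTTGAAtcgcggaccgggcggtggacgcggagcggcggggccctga
Plk1: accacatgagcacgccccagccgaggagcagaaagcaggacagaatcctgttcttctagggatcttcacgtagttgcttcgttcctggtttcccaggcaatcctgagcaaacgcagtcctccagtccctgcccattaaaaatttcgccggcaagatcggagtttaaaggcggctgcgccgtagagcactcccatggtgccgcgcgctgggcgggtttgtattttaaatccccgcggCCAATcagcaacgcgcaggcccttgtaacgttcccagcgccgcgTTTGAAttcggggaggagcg
The *Ccnb2* window holds 3 CCAAT and 2 CHR matches and the *Plk1* window 1 of each. E2F sites (TTTGGCGC, TTTCCCGC or TTTCGCGC) were found in 31% of the promoters of DNA replication genes, 5.41% of those of mitosis genes and 3.11% of all. A match is a description of letters, not a shown binding site.

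Metabolic lists rose with different timing. All 22 genes of cholesterol synthesis were higher (median 2.46). *Fdps*, farnesyl diphosphate synthase, read 15.3, 12.3 and 9.38 FPKM at 0 h, 144, 143 and 137 at 24 h and 246, 270.3 and 243 after 48 h (4.27 ± 0.16, adjusted p = 6.5e-06). All 38 genes of the respiratory chain were higher as well, by less (median 1.20), and they had done so by 24 h (median 1.10). *Atp5g1*, a subunit of ATP synthase, went from 46 ± 3.75 to 227 ± 1.83 and 166 ± 15.5 FPKM.

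Glycolysis rose on both days, with a larger median climb on the second. Of 25 genes 20 were higher and 2 lower at 48 h, with a median of 2.44 against 0.67 at 24 h. Already at 24 h 17 were called higher and 6 lower than at 0 h, against 26.7% and 30.7% of all genes. Called higher at 48 h than at 24 h were 21 (20.1% of all genes). *Pgk1*, phosphoglycerate kinase, read 66.2, 69 and 67.7 FPKM at 0 h, 309, 336 and 331 at 24 h and 1472, 1596 and 1668 after 48 h (4.52 ± 0.07, adjusted p = 1.32e-06). *Ldha*, lactate dehydrogenase A, read 118, 118 and 106 FPKM, then 600.3, 668 and 636 and then 1868, 1955 and 1938 (4.06 ± 0.07, adjusted p = 1.32e-06). The 25 genes together took 0.359 to 0.371% of all FPKM at 0 h, 0.996 to 1.07% at 24 h and 2.93 to 3.28% at 48 h. The glucose transporters went another way: *Slc2a1* was at 51.2 ± 20.5, 23.3 ± 0.98 and 73.6 ± 4.45 FPKM and *Slc2a3* at 17.8 ± 1.03, 6.32 ± 0.629 and 14.2 ± 1.95 FPKM, with no call between 48 and 0 h.

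Ribosome biogenesis genes had passed their peak. Of 32 genes 30 were higher at 48 h than at 0 h (median 0.80), but the median at 24 h had been 1.68, and 31 of the 32 were called lower at 48 h than at 24 h (24.8% of all genes). *Npm1*, nucleophosmin, read 382, 406 and 459.7 FPKM, then 1847, 2007 and 1812 and then 1504, 1507 and 1405 (1.82 ± 0.09, adjusted p = 1.46e-05). *Gnl3*, nucleostemin, went from 61 ± 24.5 to 118 ± 5.61 and back to 64.5 ± 4.32 FPKM. Interferon-stimulated genes did likewise: 28 of 31 were higher at 24 h and 18 at 48 h, against 26.7% and 26.5% of all genes, and 27 were lower at 48 h than at 24 h, against 24.8%. *Ifit1*, an inhibitor of viral translation, read 1.05, 0.53 and 0.71 FPKM, then 33.5, 30.9 and 26.1 and then 6.27, 6.3 and 5.67 (2.01 ± 0.13, adjusted p = 4.58e-05), and the chemokine *Cxcl10* went from 0.54 ± 0.052 to 6.1 ± 0.32 and back to 0.283 ± 0.196 FPKM.

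**Figure D4:**
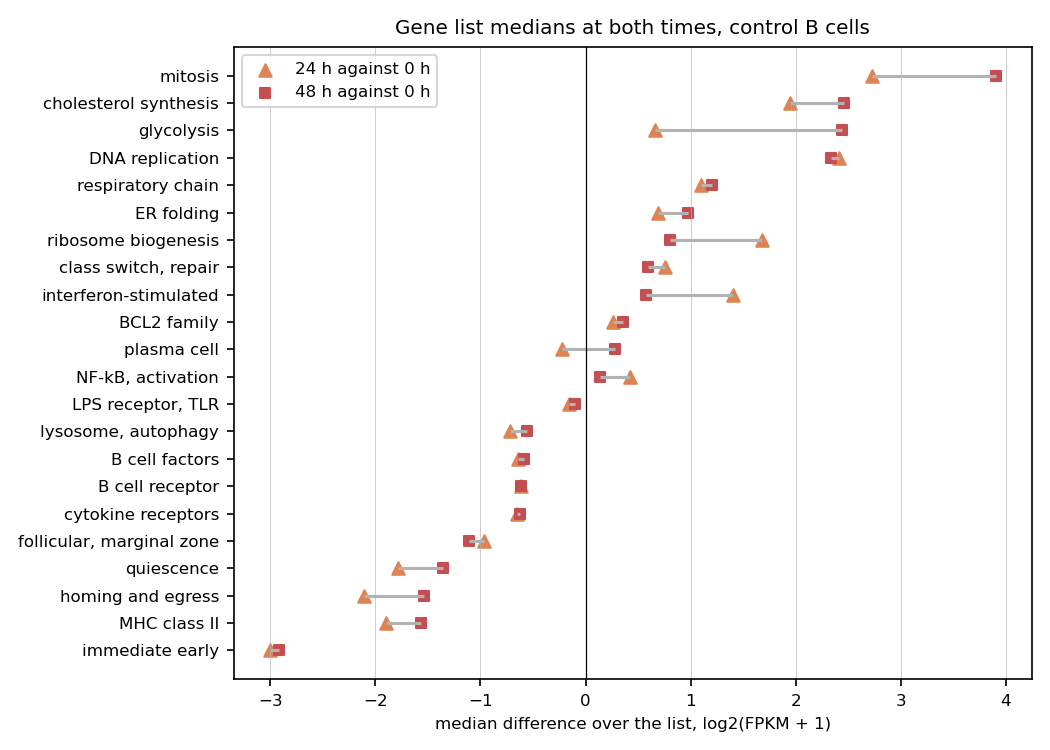
Median log2 difference over each gene list at 24 h (triangles) and 48 h (squares) against the same 0 h control libraries, on the log2(FPKM + 1) scale. Glycolysis and mitosis lie further from 0 at 48 h than at 24 h, ribosome biogenesis and interferon-stimulated genes nearer, and the immediate early list stays near −3 at both times.

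Genes of the secretory cell rose in part. Of 42 genes for protein folding and export in the endoplasmic reticulum 30 were higher and 5 lower (median 0.97). *Sdf2l1*, a chaperone partner, read 26.3, 28.1 and 13.1 FPKM at 0 h and 162, 137 and 157 at 48 h (2.77 ± 0.28, adjusted p = 0.000236), *Pdia6*, a disulfide isomerase, went from 83.4 ± 22.8 to 270.2 ± 30.2 FPKM, and *Hspa5*, the chaperone BiP, from 432 ± 38.5 to 526 ± 36.1 FPKM (0.28 ± 0.09, adjusted p = 0.0349). The 5 that fell included the stress-induced factors *Ddit3* and *Atf4* and the kinase PERK, *Eif2ak3*, at 6.89, 164 and 18 FPKM against 94.2, 386 and 61.3 at 0 h, together with *Dnajb9* and *Ero1b*.

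The endoplasmic reticulum stress element, read by Atf6 with NF-Y, was searched as CCAAT and CCACG separated by 9 bases, on both strands, and it contains the CCAAT letters counted above. It was found in 9 of 36 promoters of the endoplasmic reticulum list (25%) and in 0.141% of all. Promoters of *Hspa5* (chr2:34771840-34772139, plus strand) and *Pdia6* (chr12:17266339-17266638, plus strand), from the same RefSeq set, are given with its letters in capitals, as examples of a member that rose little and one that rose more.
Hspa5: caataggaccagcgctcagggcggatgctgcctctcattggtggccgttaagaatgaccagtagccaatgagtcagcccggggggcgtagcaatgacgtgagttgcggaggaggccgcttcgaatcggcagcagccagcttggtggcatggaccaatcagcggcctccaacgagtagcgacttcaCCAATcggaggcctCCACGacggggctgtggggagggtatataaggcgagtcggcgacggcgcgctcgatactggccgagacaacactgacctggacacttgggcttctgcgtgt
Pdia6: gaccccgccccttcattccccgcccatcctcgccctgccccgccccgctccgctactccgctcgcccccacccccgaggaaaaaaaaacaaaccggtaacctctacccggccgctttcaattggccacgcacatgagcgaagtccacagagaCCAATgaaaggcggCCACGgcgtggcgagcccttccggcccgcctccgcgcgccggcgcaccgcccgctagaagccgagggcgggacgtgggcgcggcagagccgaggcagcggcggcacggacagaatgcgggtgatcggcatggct
In genes that stayed low and in genes that returned, promoters held a CHR in 12.9% and 15.5% and CCAAT in 34.2% and 45.1%, beside the shares of all promoters given above.

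Of 33 plasma cell genes 15 were higher and 7 lower, against 26.5% and 30.3% of all genes, and 22 were called higher at 48 h than at 24 h, against 20.1%. *Prdm1*, the plasma cell regulator Blimp-1, read 1.55, 2.89 and 3.79 FPKM at 0 h, 7.66, 5.35 and 8.02 at 24 h and 14.7, 12.3 and 22.2 after 48 h (2.23 ± 0.30, adjusted p = 0.000837), and *Xbp1*, the factor of the secretory programme, 49.7, 43.5 and 39.7, then 60.0, 50.4 and 58.4 and then 131, 88.8 and 145 FPKM (1.41 ± 0.19, adjusted p = 0.000915). *Jchain*, which joins IgM and IgA into polymers, dipped from 89.5 ± 16.6 to 17.8 ± 3.96 FPKM and returned to 61.7 ± 22.1. *Sdc1*, the plasma cell surface marker CD138, was lower, at 2.84 ± 0.536 FPKM against 5.69 ± 0.371 (−0.81 ± 0.14, adjusted p = 0.0025), and *Irf4* read 118, 263 and 262 FPKM at 0 h and 59.1, 53.7 and 65.9 at 48 h (−1.74 ± 0.31, adjusted p = 0.00329). *Il10*, an immunosuppressive cytokine, rose from 1.95 ± 0.521 to 14.3 ± 2.81 FPKM. Constant-region genes of the heavy chain were not analysed here.

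Of 21 genes of class switching and the DNA repair that serves it 12 were higher and 2 lower at 48 h, against 26.5% and 30.3% of all genes. Called lower at 48 h than at 24 h were 10, against 24.8% of all genes. *Ung*, a uracil glycosylase of base excision repair, went from 11.6 ± 3.48 to 56.1 ± 2.87 and 27.4 ± 1.87 FPKM.

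Among the 16 genes of the BCL2 family 8 were higher and 3 lower, against 26.5% and 30.3% of all genes. *Bcl2l1*, which encodes the survival protein Bcl-xL, read 2.84, 2.83 and 2.07 FPKM at 0 h and 25.7, 24.2 and 29.4 at 48 h (2.94 ± 0.13, adjusted p = 1.12e-05), while *Bcl2* went from 33.3 ± 2.12 to 22.5 ± 1.75 FPKM. *Pmaip1*, the pro-death protein Noxa, read 39.6, 45.9 and 48.1 and then 5.7, 5.63 and 5.63 FPKM (−2.77 ± 0.09, adjusted p = 4.62e-06), and *Bcl2l11*, the pro-death protein Bim, dipped from 31.6 ± 16.7 FPKM to 9.12 ± 0.0153 at 24 h and climbed to 21.1 ± 2 at 48 h.

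Receptors for cytokines were mostly lower, 12 of 23, with 2 higher. *Il9r* and *Il4ra* fell by 2.69 and 2.00, and *Tnfrsf13b*, the BAFF and APRIL receptor TACI, rose from 65.1, 49.2 and 40.5 to 178, 154 and 151 FPKM (1.64 ± 0.17, adjusted p = 0.000291). Of 30 genes of the lysosome and autophagy 19 were lower and 3 higher. *Gla*, an alpha-galactosidase, read 17, 47.8 and 82.6 FPKM at 0 h and 4.36 to 4.92 at 48 h (−2.90 ± 0.52, adjusted p = 0.0032), again with the first 0 h library lowest, and *Grn*, progranulin, rose from 33.9 ± 2.41 to 119.8 ± 10.8 FPKM. The GIMAP family of lymphocyte GTPases had 2 of 8 lower and 2 higher, against 30.3% and 26.5% of all genes. Without the first 0 h library 2 were lower and 4 higher. *Gimap7* read 54.1, 24.5 and 11.1 FPKM at 0 h and 72.6, 69.7 and 75.4 at 48 h (1.52 ± 0.50, adjusted p = 0.04), and its call was lost on the TPM scale and without the second 0 h library or any one 48 h library.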

How the data were processed

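Paired-end reads of spleen B cell RNA had been mapped to mm10 with Bowtie2 and quantified with RSEM, per the study's methods and the submitters' processing notes, which also name BWA and DESeq2 (versions not given in the sources used here). The authors deposited FPKM per gene and library, and no counts were used here, so read depth is unknown. Steps between low values put the 0 h control libraries at relative depths of 0.87 to 0.94 and the 48 h ones at 1.01 to 1.06, roughly, since 35 of 60 genes lay within 5% of whole steps. From log2(FPKM + 1), limma 3.58.1 in R 4.3.3 (lmFit, eBayes with trend) was fitted to the 2 groups compared, with Benjamini-Hochberg adjustment over all genes tested. In simulated data with 200 changed genes it recovered 49.2%, 97.4% and 100% of 1.5-, 2- and 4-fold changes, with 8 false calls of 174. Gene names, positions and promoters came from RefSeq (GRCm38.p6), which matched 16508 of 16545 genes, and 739 of 750 list entries matched.

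Named were the 12 largest falls and rises, the 10 highest resting genes under 1 FPKM at 48 h, the 10 largest climbs among returned genes, and up to 4 genes of each list; other list members were named after their values were seen. Members and lists were chosen with earlier results of these data known. Each replicate was 1 mouse, and times may be paired by mouse, which the labels do not state. Alternatives were another pseudocount (0.1), a minimum of 1 FPKM, TPM, median-ratio scaling, a replicate block, 1 fit of 9 libraries, array weights, 1.5-fold classes and leaving out libraries. Values of some genes are not reported here.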

Additional observations from a re-analysis of the deposited data

How the results depend on the processing

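Across the alternatives the counts of genes higher and lower at 48 h stayed within 1.5 times those reported. Leaving out one library, or the control libraries of one number at all times, gave 2984 to 4431 higher and 3418 to 4901 lower. In those fits 881 to 987 genes stayed low and 159 to 215 returned. On the TPM scale 1523 genes stayed low and with a 1.5-fold rule 1787, both holding all 975 reported, and under that rule 1682 were also low in B-CKO cells (900 reported), since it admits smaller falls. The returned list was less stable: on the TPM scale it had 258 genes, of which 131 were among the 211 reported, and under the 1.5-fold rule 270, of which 79 were. Among genes that stayed low, those that climbed after 24 h (266 reported) numbered 158 in 1 fit of 9 libraries, 166 without replicate 2, 159 without replicate 3 and 429 under the 1.5-fold rule, and those that fell further (252) 117 in that fit, 152, 156 and 133 without replicates 1, 2 and 3, 415 on the TPM scale and 497 under the 1.5-fold rule. Late falls (247) numbered 459 on the TPM scale and 385 under the 1.5-fold rule, and resting-cell genes (1227) 2107 under that rule. With a pseudocount of 0.1, 2471 genes were 2-fold lower (1437 reported). Of 144 named genes, with up to 16 alternatives each (2295 pairs of gene and alternative), 15 lost their call in at least one and 2 changed sign. *Ctla4* went from 0.31 to −0.41 with array weights, and from −0.38 to 0.83 over the fits that left out libraries, below 0 without the first 0 h library (−0.38) or without replicate 1 at all times (−0.30). *Gsn* went from −0.04 to 0.084 with array weights, and from −0.21 to 0.15 over those fits, above 0 without the first 0 h library (0.10), replicate 1 (0.15), and the first or second 48 h library (0.0062 and 0.0012). Neither gene was called in any of these. *Ahr*, *Gla*, *Hbb-bs*, *Irf4* and *Rel* lost their call without replicate 2 at all times, with 2 libraries a group. *Pafah1b3*, *Serinc5*, *Vegfa* and *Cdc25b*, uncalled in the test reported, were called in at least 2 alternatives. The cause of these changes was not tested.

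A replicate block gave 3943 higher and 4459 lower genes, 978 that stayed low and 208 that returned. Same-numbered control libraries shared little (correlation of deviations 0.01, −0.08 and 0.04 between 0 and 48 h), and 1 of 3 correlated best with its own number, so the block was not used. Of simulated 1.5-fold changes 49.2% were found, in a simulation with far fewer changed genes than were called here. With libraries of one time and number as a block, 0 genes differed between genotypes in the change from 0 to 48 h, as without it.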

Other observations

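A list of 32 genes known to be induced by low oxygen was drawn up after values had been seen, because several of the largest late climbs belong to it, so its counts are a description and no test. At 48 h 25 of the 32 were higher than at 0 h and 3 lower, with a median difference of 2.11 at 48 h and −0.01 at 24 h. Between 24 and 48 h 30 of the 32 were called higher, where 20.1% of all genes were, and 7 of the 8 resting-cell genes among them met the rule for returned genes, where 17.2% of all resting-cell genes did. Of the 32, 10 are also on the glycolysis list, and of the other 22 the genes called higher at 48 h than at 24 h numbered 20.

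*Bnip3*, which marks mitochondria for autophagy, read 6.73, 5.18 and 4.54 FPKM at 0 h, 5.52, 7.01 and 5.63 at 24 h and 98.9, 123 and 124 after 48 h. *Egln3*, a prolyl hydroxylase that senses oxygen, read 0.05, 0.26 and 0.32, then 0.22, 0.32 and 0.12 and then 14.1, 15.9 and 15.8 FPKM, and *Ankrd37*, an ankyrin repeat protein, 12.3, 8.02 and 4.16, then 3.7, 6.3 and 4.72 and then 115, 125 and 126 FPKM. The 24 h libraries of *Bnip3* and *Egln3* lay among or beside those at 0 h, and all 3 libraries at 48 h were far above. *Pdk1*, the kinase that closes pyruvate entry into mitochondria, went from 9.68 ± 0.919 through 6.82 ± 0.557 to 42.7 ± 4.37 FPKM. *Bhlhe40*, *Pfkfb4* and *Adm* were lower at 48 h than at 0 h, at 37, 4.13 and 4.89 FPKM against 138, 8.49 and 8.28. Oxygen in the cultures is not given in the sources used here, and its part was not tested.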
